A study of Mus musculus with 9 samples.

Results

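The proto-oncogene Myc and 9 genes of the AP-1 and growth factor response are grouped here as immediate early genes. The 9 are Fos, Fosb, Fosl1, Fosl2, Jun, Junb, Egr1, Atf3 and Dusp1. All were followed across 3 preparations of mouse heart cells. The members are the 10 listed genes of 19933 genes measured. For each, the probe annotated to that gene alone was used, and each gene had exactly 1 such probe. The study profiled total RNA of Nkx-YFP+ embryonic cardiomyocytes, named for a reporter, of embryonic cardiac fibroblasts and of adult cardiac fibroblasts, with 3 biological replicates in each group, on Affymetrix mouse Gene 1.0 ST arrays. Its stated purpose was to find fibroblast factors that act on the proliferation of myocytes. No treatment is named for any group. The sources used here name no strain, embryonic stage, adult age, culture step or pooling of animals.

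Immediate early genes are switched on within minutes of a growth factor, cytokine or stress signal, without the need for new protein. AP-1 is a family of dimers that join a Jun protein to a partner of the Fos or ATF families through a leucine zipper, and the partner chosen changes which genes are bound. MYC pairs with MAX and raises genes of ribosome production and metabolism, and in the heart its level is known to be high in growing cells and low in resting adult myocytes. Because these genes respond fast, the handling of cells during isolation or culture is also known to raise them.

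All levels below are the deposited RMA values, read as log2, a scale on which a step of 1 is a doubling. The labelled cell types were checked against marker lists, as shown in the plot of marker levels. The mean of 12 cardiomyocyte markers, such as Tnnt2 and Ttn, ran from 12.52 to 12.63 in the cardiomyocyte arrays, from 10.95 to 11.69 in embryonic fibroblasts and from 7.82 to 8.22 in adult fibroblasts. Cardiomyocyte RNA markers were thus strongly present in the embryonic fibroblast arrays, with Tnnt2 at 13.38 ± 0.10 (SD, n = 3) against 13.82 ± 0.06 in cardiomyocytes. The mean of 12 fibroblast markers rose in the opposite order, from 8.72 to 8.95, then 10.02 to 10.28, then 10.83 to 10.99. Not every marker did so. In embryonic against adult fibroblasts 7 of the 12 were called lower (58.3%, against 8.34% of all genes) and 1 higher (8.33%, against 11.2%). The higher one was Col3a1, at 9.65 against 9.12. Col1a1, Col1a2, Postn and Vim also had their highest mean in embryonic fibroblasts. The mean of 12 macrophage markers ran from 7.39 to 7.51, from 7.99 to 8.32 and from 8.68 to 9.35 in the same order of groups, and 12 endothelial markers from 8.31 to 8.68, 9.33 to 9.80 and 8.72 to 9.85. In bulk RNA, fewer cells of a type and less RNA per cell cannot be told apart. The epicardial, smooth muscle and red cell lists are in the same plot. Of the adult fibroblast arrays, replicate 3 was least like its group: its mean correlation with the other adult arrays over probes was 0.970, against 0.981 for replicates 1 and 2. Transcripts of 3 Y-linked genes lay between 4.67 and 6.87 in adult arrays and between 7.84 and 9.33 in embryonic arrays of both cell types. Sex and age therefore cannot be told apart in either comparison with adult fibroblasts. Against cardiomyocytes, cell type differs from adult fibroblasts at the same time.

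**Figure D1:**
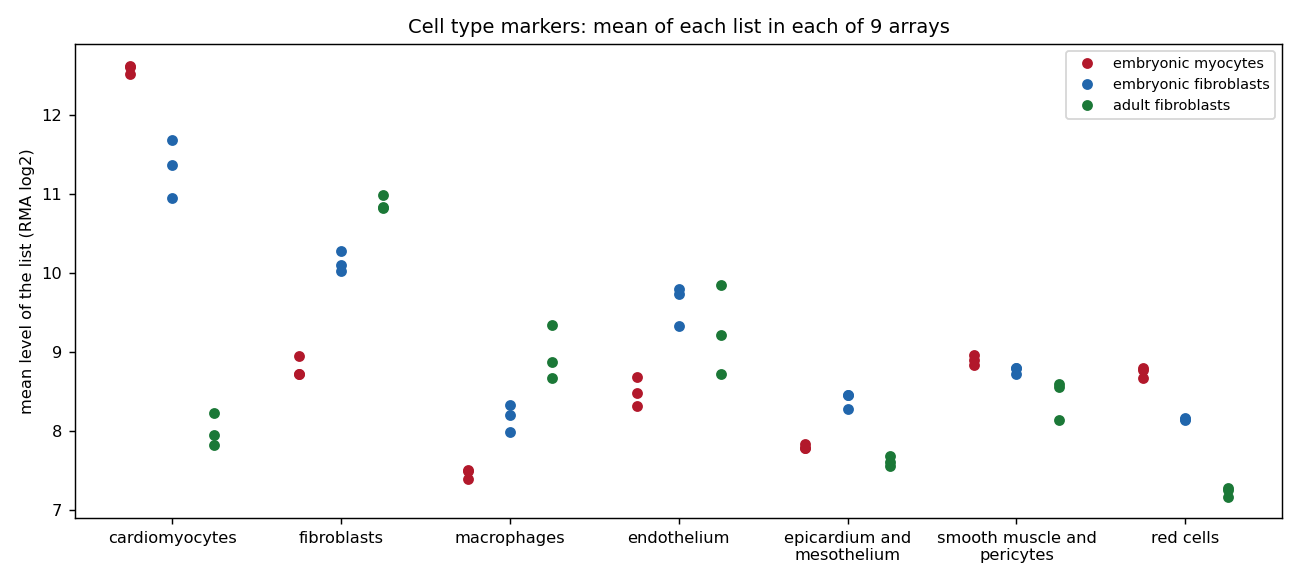
Mean RMA log2 level of each marker list (vertical axis) in each of the 9 arrays; every point is 1 array, coloured by group. Cardiomyocyte marker means lie at 12.52 to 12.63 in cardiomyocytes, 10.95 to 11.69 in embryonic fibroblasts and 7.82 to 8.22 in adult fibroblasts. The means of the fibroblast list run the other way, though not every marker in it does.

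Promoters of 7 of the 10 genes were taken from the RefSeq table (GRCm38.p6). Those of Myc, Fosl1 and Egr1 were not examined, although Egr1 was also lower in both fibroblast groups. The sequences of Fos, Jun and Atf3 are shown because these genes were lower in both fibroblast groups, and that of Dusp1 because it carried the most matches and had another pattern. Each run holds the 250 bases before the annotated start, 5′ to 3′ on the gene's strand. Capitals mark matches, on either strand, to the cyclic AMP response element type site TGACNTCA, its half-site TGACGT, the AP-1 site TGANTCA, the E-box CACGTG bound by MYC and MAX, and the CArG box bound by serum response factor. A half-site can overlap the full site, and the TATA box letters TATAAA were searched too but are not in capitals.
Fos, chr12:85473640-85473889, plus strand: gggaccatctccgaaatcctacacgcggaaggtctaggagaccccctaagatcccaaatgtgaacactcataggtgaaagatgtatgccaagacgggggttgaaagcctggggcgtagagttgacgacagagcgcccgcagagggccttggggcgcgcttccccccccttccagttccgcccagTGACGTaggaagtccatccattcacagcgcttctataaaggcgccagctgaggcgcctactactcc
Jun, chr4:95052223-95052472, minus strand: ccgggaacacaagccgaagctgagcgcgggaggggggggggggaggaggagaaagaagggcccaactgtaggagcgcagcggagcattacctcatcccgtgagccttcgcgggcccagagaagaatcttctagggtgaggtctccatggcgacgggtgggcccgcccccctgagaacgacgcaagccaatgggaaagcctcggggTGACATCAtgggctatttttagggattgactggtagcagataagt
Atf3, chr1:191183334-191183583, minus strand: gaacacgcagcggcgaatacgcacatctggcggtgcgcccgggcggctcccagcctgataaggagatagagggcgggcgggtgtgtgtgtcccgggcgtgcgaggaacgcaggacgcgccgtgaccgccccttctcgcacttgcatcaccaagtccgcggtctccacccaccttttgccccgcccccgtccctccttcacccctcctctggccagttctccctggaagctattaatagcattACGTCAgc
Dusp1, chr17:26508473-26508722, minus strand: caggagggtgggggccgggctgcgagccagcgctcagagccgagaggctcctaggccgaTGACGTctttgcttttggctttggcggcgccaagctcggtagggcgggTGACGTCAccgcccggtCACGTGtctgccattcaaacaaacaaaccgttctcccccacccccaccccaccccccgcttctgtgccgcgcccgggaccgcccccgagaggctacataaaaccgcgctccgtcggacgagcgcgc

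Counted back from the start, with -1 as the last base before it, Fos held the half-site at -66 to -61, Jun the variant TGACATCA at -45 to -38 and Atf3 the half-site at -8 to -3. Dusp1 held a half-site at -191 to -186, the full site TGACGTCA at -143 to -136 and the E-box at -126 to -121. The full-type site occurred in 2 of the 7 windows and in 7.59% of 27018 promoters of the same length, the half-site in 3 of 7 and in 6.56%, and the E-box in 1 of 7 and in 6.05%. TATAAA was found in Fos alone, at -33 to -28, and in 13.0% of all promoters. The AP-1 site and the CArG box occurred in 0 of the 7 windows, and in 6.87% and 1.40% of all promoters. These matches describe letters in a window only, and the counts leave out Myc, Fosl1 and Egr1. Bases further upstream were not searched. The counts therefore cannot tell whether a CArG box or AP-1 site lies outside the windows or near the genes left out.

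Differences between groups were tested with limma over all 19933 genes, and a gene was called at a Benjamini-Hochberg adjusted p under 0.05. Relative to cardiomyocytes, Myc and Fosl1 were called higher in embryonic fibroblasts, where 10.3% of all genes were called higher, and Fos, Jun, Egr1 and Atf3 were called lower, where 11.1% were called lower and 21.4% in either direction. Single arrays decided part of the lower count, which was 2 without cardiomyocyte replicate 1 or 2 or embryonic fibroblast replicate 1 or 2. It was 3 without cardiomyocyte replicate 3 or adult fibroblast replicate 2. In adult fibroblasts against cardiomyocytes, Myc, Fosl1 and Dusp1 were called higher (17.4% of all genes) and the same 4 genes lower (18.2%, or 35.6% in either direction). Without adult fibroblast replicate 3 the higher genes numbered 5. Between the fibroblast groups, Myc, Fosl1 and Dusp1 were called lower in embryonic than in adult cells (8.34% of all genes), and 0 of the 10 were called higher (11.2%, or 19.5% in either direction), also at an unadjusted p under 0.05 in limma. The arrays of the groups did not overlap for 7, 8 and 4 of the 10 genes in these 3 comparisons, against 39.1%, 45.9% and 33.0% of all genes. The comparisons share groups, so their counts are not independent of each other. The plot of differences shows each with its 95% interval.

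**Figure D2:**
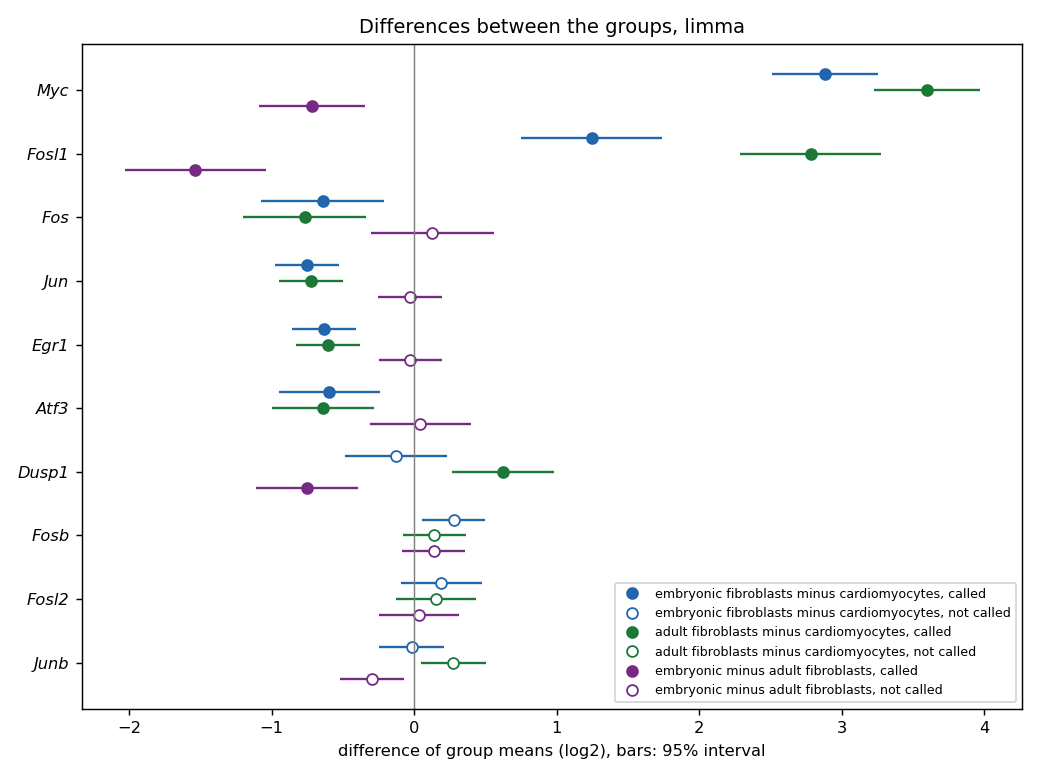
Difference of group means in log2 units (horizontal axis) for the 10 genes (rows) in the 3 comparisons, with 95% intervals from limma; filled points were called and open points were not. Myc and Fosl1 lie to the right of 0 in both comparisons with cardiomyocytes, and Fos, Jun, Egr1 and Atf3 to the left.

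Myc, which encodes the MAX-binding transcription factor, showed the largest difference among the 10 genes. Its level was 9.24, 8.70 and 8.66 in the cardiomyocyte arrays, 11.86, 11.76 and 11.62 in embryonic fibroblasts and 12.37, 12.32 and 12.70 in adult fibroblasts. Every fibroblast array thus lay above every cardiomyocyte array, and every adult array above every embryonic one. Myc was 7.37-fold higher in embryonic fibroblasts than in cardiomyocytes (log2 difference 2.88 ± 0.16, SE, adjusted p = 2.63e-05), the 13th largest rise of all genes. In adult fibroblasts it was 12.1-fold higher than in cardiomyocytes (3.60 ± 0.16, adjusted p = 4.37e-07), which placed it 76th. The step between the fibroblast groups was smaller, a difference of -0.72 ± 0.16 for embryonic against adult cells (adjusted p = 0.0135). That call was lost without embryonic fibroblast replicate 3 (adjusted p = 0.0526, over a range from 0.00437 to 0.0526 in all alternatives). The fibroblast and macrophage marker means stood in the same order of groups as Myc, without overlap, and the cardiomyocyte marker means in the opposite order. Their part in the result was not tested.

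Fosl1 encodes FRA-1, a Fos family protein known to accumulate later than Fos and to be a target of AP-1 itself. Its level was 7.79, 7.92 and 8.06 in cardiomyocytes, 9.37, 9.27 and 8.88 in embryonic fibroblasts and 11.04, 10.92 and 10.17 in adult fibroblasts. The 3 groups did not overlap and stood in the same order as for Myc. Fosl1 was 2.37-fold higher in embryonic fibroblasts than in cardiomyocytes (1.25 ± 0.22, adjusted p = 0.00334) and 6.89-fold higher in adult fibroblasts (2.78 ± 0.22, adjusted p = 8.95e-06). Embryonic lay below adult fibroblasts by 2.90-fold (-1.54 ± 0.22, adjusted p = 0.00102), so this step was larger for Fosl1 than for Myc in size, a contrast between genes that was not tested. Replicate 3 was the lowest array in both fibroblast groups, and the spread in adult cells was wide (SD 0.47). The fibroblast, macrophage and cardiomyocyte marker means moved with Fosl1 as they did with Myc, and their part was not tested.

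Fos and Jun, which encode the founding partners of AP-1, were highest in cardiomyocytes. Jun stood at 10.59, 10.46 and 10.39 in cardiomyocytes, at 9.78, 9.60 and 9.79 in embryonic fibroblasts and at 9.62, 9.91 and 9.73 in adult fibroblasts. The lowest cardiomyocyte array lay above the highest fibroblast array, while the fibroblast groups overlapped. The difference was -0.75 ± 0.10 for embryonic fibroblasts (adjusted p = 0.000811) and -0.72 ± 0.10 for adult fibroblasts against cardiomyocytes (adjusted p = 0.000329), or 1.69-fold and 1.65-fold. Fos measured 9.60, 9.52 and 9.37 in cardiomyocytes, 8.69, 8.63 and 9.24 in embryonic fibroblasts and 8.36, 8.85 and 8.96 in adult fibroblasts. Again no fibroblast array reached the cardiomyocytes, but embryonic fibroblast replicate 3, at 9.24, came close to the lowest of them, at 9.37. Fos differed by -0.64 ± 0.19 in embryonic fibroblasts (adjusted p = 0.0403) and by -0.77 ± 0.19 in adult fibroblasts (adjusted p = 0.0110). The first of these calls was lost without any of 6 arrays, namely the 3 cardiomyocyte arrays, embryonic fibroblast replicates 1 and 2 and adult fibroblast replicate 2 (adjusted p from 0.0518 to 0.149, over a range from 0.00344 to 0.149 in all alternatives).

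Egr1, a zinc finger factor induced through serum response factor, and Atf3, a stress-induced partner of Jun proteins, shared this pattern. Egr1 read 10.36, 10.11 and 10.25 in cardiomyocytes, 9.56, 9.50 and 9.77 in embryonic fibroblasts and 9.55, 9.67 and 9.69 in adult fibroblasts. The cardiomyocyte arrays stood above all others, with differences of -0.63 ± 0.10 (adjusted p = 0.00196) and -0.61 ± 0.10 (adjusted p = 0.00100). Atf3 read 11.10, 11.01 and 10.76 in cardiomyocytes, 10.46, 10.06 and 10.55 in embryonic fibroblasts and 10.33, 10.52 and 10.10 in adult fibroblasts. Its differences were -0.60 ± 0.16 (adjusted p = 0.0248) and -0.64 ± 0.16 (adjusted p = 0.0106). The Atf3 call in embryonic fibroblasts was lost without cardiomyocyte replicate 1 or 2 or embryonic fibroblast replicate 1 or 2 (adjusted p from 0.0508 to 0.0960, over a range from 0.00304 to 0.0960 in all alternatives).

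Between embryonic and adult fibroblasts none of these 4 genes passed the test, with limma's unadjusted p from 0.526 to 0.799. The 95% intervals of the differences ran from -0.25 to 0.20 for Jun, from -0.25 to 0.20 for Egr1, from -0.31 to 0.40 for Atf3 and from -0.31 to 0.56 for Fos. A step of the size estimated between cardiomyocytes and either fibroblast group lay outside each gene's interval. The cardiomyocyte marker means were highest in cardiomyocytes, like the 4 genes, and were 10.95 to 11.69 in embryonic and 7.82 to 8.22 in adult fibroblasts. Their part in the levels of the 4 genes was not tested.

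Dusp1 encodes a phosphatase that switches off MAP kinases and is itself an immediate early gene. It measured 9.62, 9.51 and 9.38 in cardiomyocytes, 9.32, 9.21 and 9.60 in embryonic fibroblasts and 10.12, 10.43 and 9.83 in adult fibroblasts. The adult arrays lay above the other 6, which overlapped each other. Adult fibroblasts exceeded cardiomyocytes by 0.62 ± 0.16 (1.54-fold, adjusted p = 0.0118), and embryonic fibroblasts lay below adult ones by 1.68-fold (-0.75 ± 0.16, adjusted p = 0.00839). The embryonic groups differed by -0.13 ± 0.16 (adjusted p = 0.669, 95% interval from -0.48 to 0.23). The marker means of macrophages, from 8.68 to 9.35, and of fibroblasts, from 10.83 to 10.99, were also highest in adult fibroblasts. Of these markers, 7 of 12 and 12 of 12 were called higher in embryonic fibroblasts than in cardiomyocytes, against 10.3% of all genes. Their part in the Dusp1 level was not tested.

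Fosb, Fosl2 and Junb, which encode further Fos and Jun family proteins, were not called in any comparison of the main fit. Of 17 alternatives, 4 called Fosb in embryonic fibroblasts against cardiomyocytes and 4 called Junb in adult fibroblasts against cardiomyocytes. For Junb in embryonic against adult fibroblasts, 2 did. Some of these alternatives kept all arrays. Fosb ran from 9.83 to 9.94 in cardiomyocytes, from 10.09 to 10.23 in embryonic fibroblasts and from 9.84 to 10.19 in adult fibroblasts. The embryonic groups did not overlap, but the difference of 0.28 ± 0.10 had an adjusted p of 0.0787. Without adult fibroblast replicate 3 Fosb was called in that comparison (adjusted p = 0.0203, over a range from 0.00871 to 0.216 in all alternatives) and in adult fibroblasts against cardiomyocytes (0.24, adjusted p = 0.0465, over a range from 0.0465 to 0.651). Junb was 7.82, 7.78 and 7.82 in cardiomyocytes, 7.73, 7.80 and 7.84 in embryonic fibroblasts and 8.28, 8.09 and 7.88 in adult fibroblasts. All adult arrays lay above the rest, at differences of 0.28 ± 0.10 from cardiomyocytes (adjusted p = 0.0591) and of -0.29 ± 0.10 for embryonic against adult fibroblasts (adjusted p = 0.0733). Both were called without adult fibroblast replicate 3 (adjusted p = 0.00502, over a range from 0.00295 to 0.184, and adjusted p = 0.00678, over a range from 0.00336 to 0.203). Fosl2 overlapped in all 3 comparisons, ranging over 0.51 in the 9 arrays, and was called against cardiomyocytes only without embryonic fibroblast replicate 3 (0.33, adjusted p = 0.0494, over a range from 0.0494 to 0.769).

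**Figure D3:**
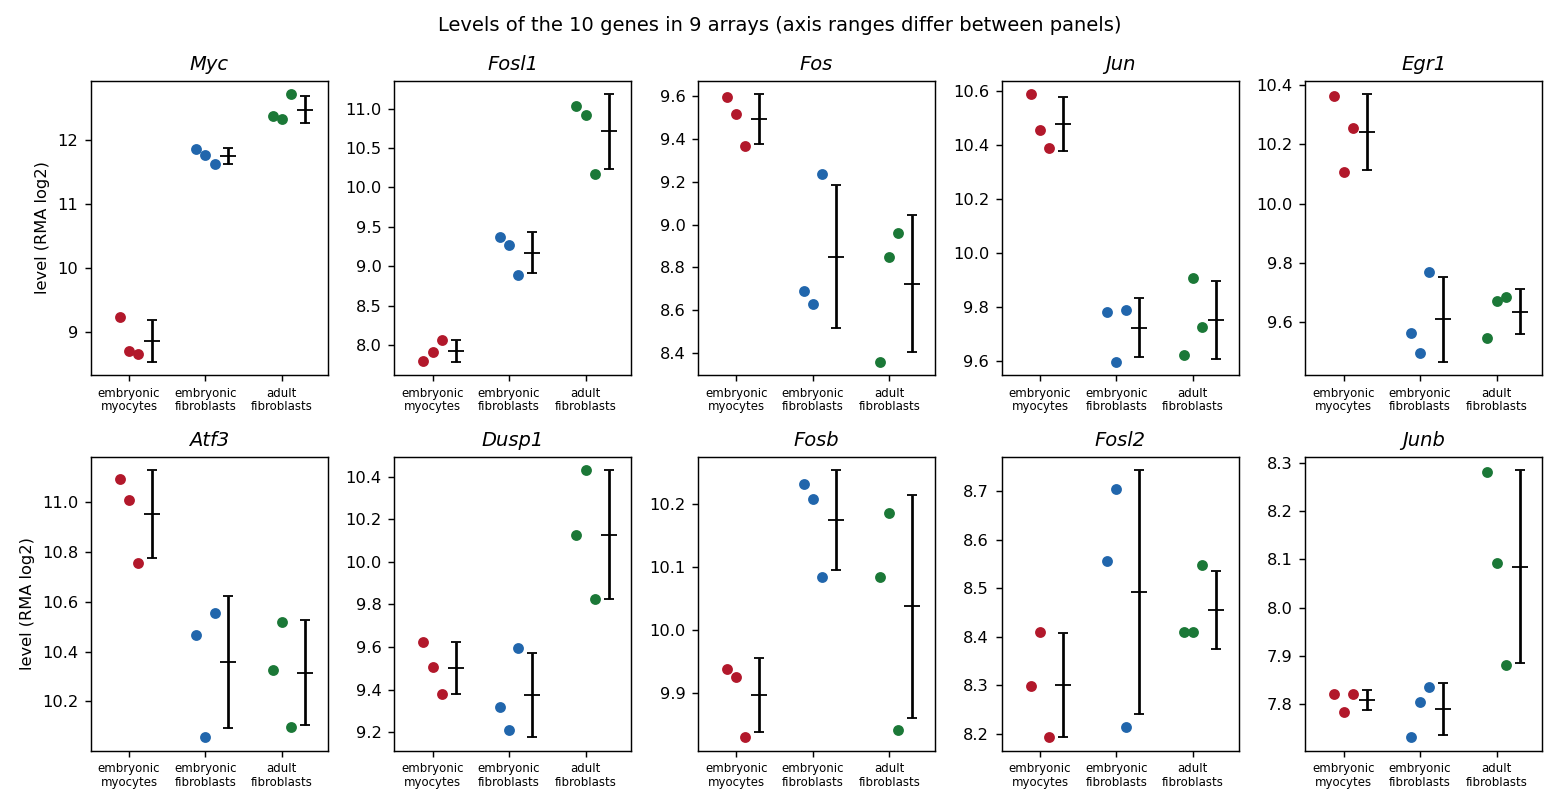
RMA log2 level (vertical axis, with a range of its own in each panel) of the 10 genes in the 9 arrays; points are replicates 1 to 3 from left to right, and the bar beside them is the mean ± SD. Myc and Fosl1 climb from cardiomyocytes to adult fibroblasts, Fos, Jun, Egr1 and Atf3 are highest in cardiomyocytes, Dusp1 is highest in adult fibroblasts, and Fosb, Fosl2 and Junb span at most 0.55.

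Set in order of their group means, Myc and Fosl1 ran from cardiomyocytes through embryonic to adult fibroblasts, with every neighbouring step called. For Jun, Egr1, Atf3 and Fos the cardiomyocytes came first, and the fibroblast groups did not differ beyond their spread. For Dusp1 adult fibroblasts came first, and the embryonic groups did not differ beyond their spread. The group means spanned 3.60 for Myc and 2.78 for Fosl1, and 0.60 to 0.77 is the size class of the 5 other called genes in the comparisons in which they passed.

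Arrays of a group differed from each other in several of the genes together. Adult fibroblast replicate 3 had the largest mean absolute deviation from its group over the 10 genes, 0.21, against 0.19 for embryonic fibroblast replicate 3. The adult array was the lowest of its group for 5 genes (Fosb, Fosl1, Junb, Atf3 and Dusp1) and the highest for 4 (Myc, Fos, Fosl2 and Egr1). Embryonic fibroblast replicate 3 was the highest of its group for 6 genes (Fos, Jun, Junb, Egr1, Atf3 and Dusp1) and the lowest for the other 4 (Myc, Fosb, Fosl1 and Fosl2). Its deviation from the group mean was 0.38 for Fos, 0.22 for Dusp1 and 0.16 for Egr1, and -0.29 for Fosl1 and -0.28 for Fosl2. This array also had the highest cardiomyocyte marker mean of its group, 11.69 against 11.37 and 10.95, and the lowest endothelial one, 9.33 against 9.74 and 9.80. Its macrophage mean was the highest, 8.32 against 8.20 and 7.99, and its fibroblast mean the lowest, 10.02 against 10.28 and 10.11. By small margins it was also highest for the epicardial and smooth muscle lists and lowest for red cells. What part these markers have in the deviations was not tested. Cardiomyocyte replicate 1 was the highest of its group for 7 of the 10 genes, including Myc. It also had the highest marker means of its group for cardiomyocytes (12.63), fibroblasts (8.95), endothelium (8.68), smooth muscle (8.96) and red cells (8.80), whose part was not tested.

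The genes most like each called member were found by the root mean square difference (RMS) between 9-array profiles, each gene centred on its own mean. Nearest to Myc were Ptx3, which encodes a pentraxin of innate immunity, at an RMS of 0.23 log2 units, the calcium-binding protein gene S100a6 at 0.27 and the phosphodiesterase gene Pde1a at 0.29. Nearest to Fosl1 were the FGF receptor gene Fgfr1 at 0.11, Bcat1, of branched-chain amino acid metabolism, at 0.15 and Gclc, of glutathione synthesis, at 0.20. Fos was closest to Cenpj (0.10), Jun to Mrps9 (0.08), Egr1 to the angiotensin receptor gene Agtr1a (0.05), Atf3 to Vps39 (0.09) and Dusp1 to Ggps1 (0.10). The distances of genes that change little are small by their nature, and the points share their arrays.

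Other genes of the same response were taken from lists of named genes, shown in the plot of pathway lists. The counts of each list are to be read against all genes, of which 10.3% were called higher and 11.1% lower in embryonic fibroblasts against cardiomyocytes, 17.4% and 18.2% in adult fibroblasts against cardiomyocytes, and 11.2% and 8.34% in embryonic against adult fibroblasts. Of 33 other immediate early genes, 15 were called higher (45.5%) and 2 lower (6.06%) in embryonic fibroblasts against cardiomyocytes, with a median difference of 0.35 where the median over all genes was -0.0003. The largest were Klf6 (1.35), the nuclear receptor gene Nr4a2 (1.20), Trib1 (1.14) and the matricellular gene Ccn1 (1.05). In adult fibroblasts 17 were higher (51.5%) and 1 lower (3.03%; median 0.61 against 0.06), led by Nfkbia, the inhibitor of NF-kB (2.25), Nr4a2 (1.91), Gem (1.80) and Nr4a3 (1.73). For embryonic against adult fibroblasts 1 was higher (3.03%) and 7 lower (21.2%; median -0.15 against -0.04), among them Gem (-1.54) and Nr4a3 (-1.37), and 13 were lower without adult fibroblast replicate 3. The macrophage markers were called higher than in cardiomyocytes for 7 of 12 genes in embryonic and 11 of 12 in adult fibroblasts, and their part in these counts was not tested.

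Of 17 further AP-1 and bZIP genes measured, 4 were higher (23.5%, against 10.3% of all genes) and 0 lower (against 11.1%) in embryonic fibroblasts than in cardiomyocytes (median 0.19). They were Maff (0.74), Atf2 (0.57), Mafg (0.44) and Mafk (0.39), and the count fell to 2 without cardiomyocyte replicate 1 or embryonic fibroblast replicate 1 or 2 and rose to 7 without adult fibroblast replicate 3. In adult fibroblasts 12 were higher (70.6%, against 17.4%) and 0 lower (against 18.2%; median 0.60), including the AP-1 repressor gene Jdp2 (1.05), Cebpd (1.02) and Maff (1.01). That count was 7 without cardiomyocyte replicate 3 or adult fibroblast replicate 2. For embryonic against adult fibroblasts 0 were higher and 2 lower (11.8%, near the 8.34% of all genes; median -0.27), namely Atf1 (-0.48) and Maff (-0.27). That count was unstable, at 7 without adult fibroblast replicate 3, 0 or 1 without any one other array, 5 under quantile normalization, 9 with array weights and 0 when only the compared groups were fitted. Among 17 genes of MAP kinase feedback, the group to which Dusp1 belongs by function, 10 were higher (58.8%, against 10.3%) and 0 lower (against 11.1%) in embryonic fibroblasts (median 0.39). The receptor inhibitor gene Errfi1 (2.43), the ERK phosphatase gene Dusp4 (1.63), Spred1 (1.49) and Spry2 (1.07) were the largest. In adult fibroblasts 6 were higher (35.3%, against 17.4%) and 0 lower (against 18.2%; median 0.22), with Errfi1 at 2.73 and Dusp10, a phosphatase of stress kinases, at 1.36. For embryonic against adult fibroblasts 3 were higher (17.6%, against 11.2%) and 2 lower (11.8%, against 8.34%), with a median of 0.18. Dusp4 (1.36), Dusp6 (1.17) and Dusp5 (0.53) were higher there, and Dusp10 (-1.09) was lower, as was Dusp1 among the members.

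Of 12 partners and relatives of MYC that were measured, 1 was higher and 1 lower in embryonic fibroblasts against cardiomyocytes, 8.33% each way and near the 10.3% and 11.1% of all genes. They were Mlxip (0.37) and Mycn (-0.34). No gene was called higher without cardiomyocyte replicate 1 or embryonic fibroblast replicate 1, and none lower without cardiomyocyte replicate 2 or 3 or any of the embryonic fibroblast arrays. In adult fibroblasts 3 were higher and 3 lower, 25% each way against 17.4% and 18.2% of all genes, with Max, the partner of MYC, at 0.76, Mlxip at 0.81, the antagonist gene Mxi1 at -0.60 and Mycn at -0.54. Among 34 textbook targets of MYC, 8 were higher (23.5%, against 10.3%) and 2 lower (5.88%, against 11.1%) in embryonic fibroblasts (median 0.10), with Bcat1 (1.17), Slc7a5, an amino acid transporter gene (0.96), and the RNA helicase gene Ddx21 (0.94) up and the transferrin receptor gene Tfrc down (-1.24). In adult fibroblasts 17 were higher (50%, against 17.4%) and 7 lower (20.6%, near the 18.2% of all genes; median 0.50), where Bcat1 reached 2.55 and the cyclin-dependent kinase gene Cdk4 was lower (-1.96), and the lower genes numbered 4 without cardiomyocyte replicate 2. For embryonic against adult fibroblasts 4 were higher (11.8%, near 11.2%) and 12 lower (35.3%, against 8.34%; median -0.31), the most reduced being the hexokinase gene Hk2 (-2.24). The number of lower genes was 20 without adult fibroblast replicate 3 and 7 without adult fibroblast replicate 2.

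Of 25 textbook targets of AP-1 that were measured, 10 were higher (40%, against 10.3% of all genes) and 1 lower (4%, against 11.1%) in embryonic fibroblasts than in cardiomyocytes (median 0.56). In adult fibroblasts 17 were higher (68%, against 17.4%) and 2 lower (8%, against 18.2%; median 1.95). The haem oxygenase gene Hmox1 rose by 2.85 and 4.20, and the prostaglandin synthase gene Ptgs2 by 4.28 and 6.09. Against adult fibroblasts, embryonic ones had 3 higher (12%, near 11.2%) and 15 lower (60%, against 8.34%; median -1.01), led by the cytokine gene Il6 (-5.84) and including the collagenase and stromelysin genes Mmp13 (-2.17) and Mmp3 (-3.04). The kinases and factors upstream of these genes had 7 of 21 higher (33.3%, against 10.3%) and 0 lower (against 11.1%) in embryonic fibroblasts against cardiomyocytes (median 0.10), with the ternary complex factor genes Elk3 (1.08) and Elk4 (0.89). In adult fibroblasts 5 were higher (23.8%) and 3 lower (14.3%), near the 17.4% and 18.2% of all genes (median 0.006). For embryonic against adult fibroblasts 6 were higher (28.6%, against 11.2%) and 2 lower (9.52%, near 8.34%; median 0.09). Of 12 heat shock genes, which are also known to respond to cell handling, 2 were higher and 2 lower in embryonic fibroblasts (16.7% each way, against 10.3% and 11.1%; median -0.06). In adult fibroblasts 6 were higher (50%, against 17.4%) and 3 lower (25%, against 18.2%; median 0.08), where Bag3 (0.96) and Hspa1a (0.88) were higher and Cryab (-2.12) and Hspb1 (-1.24) lower. For embryonic against adult fibroblasts 1 heat shock gene was higher (8.33%, near 11.2%) and 2 were lower (16.7%, against 8.34%; median -0.09), with Hspa1a at -1.23. Apart from the arrays named, leaving out 1 array moved list counts of 2 or fewer by at most 2, which can remove or double such a count. In embryonic fibroblasts against cardiomyocytes, the 2 higher heat shock genes fell to 1 without any single array of these groups. The 2 lower ones became 4 without embryonic fibroblast replicate 3. The 1 lower AP-1 target fell to 0 without any cardiomyocyte array or embryonic fibroblast replicate 1 or 2.

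**Figure D4:**
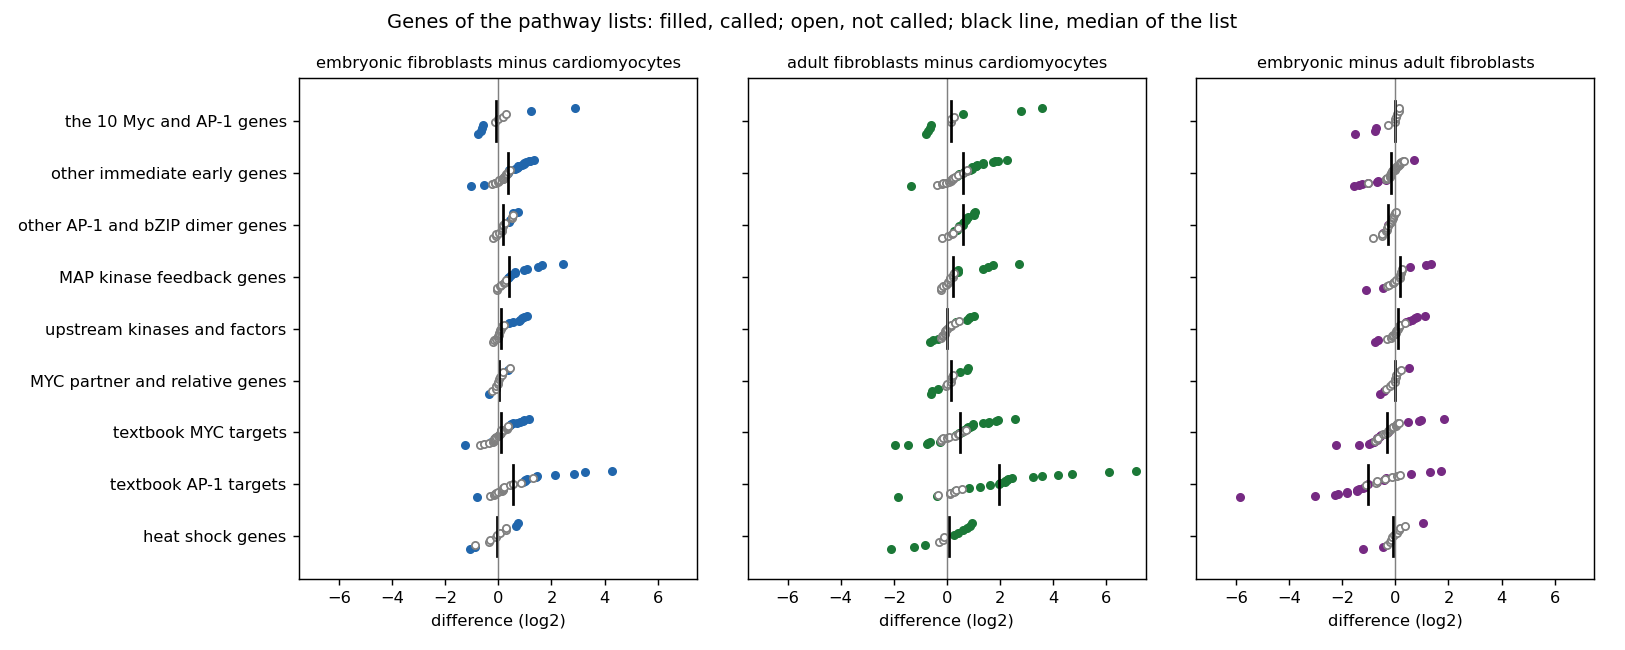
Difference in log2 units (horizontal axis) of every measured gene of the pathway lists (rows) in the 3 comparisons (panels); filled points were called, open points were not, and the black line is the median of the list. The textbook AP-1 targets have the largest medians in size, 0.56, 1.95 and -1.01 from left to right, while the 10 Myc and AP-1 genes lie on both sides of 0 against cardiomyocytes.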

How the data were processed

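Per the submitters' processing notes, the authors used RMA (version not stated). The log base of the deposited values is not stated, and they were taken as log2 from their range of 2.70 to 14.20. RMA corrects background, normalizes arrays to each other and compresses differences of dim genes. Of 28767 probes, 21776 had a single gene symbol in the platform annotation. Where a gene had several such probes, the one brightest on average was kept, giving 19933 genes. Group means over all 9 arrays were estimated by lmFit and eBayes (limma 3.58.1, R 4.3.3) with no filter on dim genes, and with two-sided p-values adjusted by Benjamini-Hochberg over all genes and called under 0.05. The fit was tested on simulated data. Depth has no meaning for arrays, and their number limits the precision. Figures used matplotlib 3.10.9 in Python 3.11.15.

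The members and gene lists were chosen with earlier results of these data known. Besides the 10 members, the genes named are up to 4 called genes with the largest difference per list and comparison, the 3 genes nearest in pattern to a called member, and cell type markers. Alternatives were centring arrays, quantile normalization, leaving out 5265 dim genes, the mean of all probes of a gene, fitting only the groups compared, the replicate number as a block, limma-trend, array weights and leaving out each array.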

Additional observations from a re-analysis of the deposited data

How the results depend on the processing

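Over 17 alternatives, 475 of 510 differences of the 10 genes kept their direction and their side of the threshold, 11 were no longer called, 12 became called and 12 changed sign, all 12 in differences that were not called. Leaving out single arrays gave 2 to 4 genes lower in embryonic fibroblasts than in cardiomyocytes and 3 to 5 higher in adult fibroblasts than in cardiomyocytes. For embryonic against adult fibroblasts, quantile normalization turned Fosl2 to -0.0469 (adjusted p = 0.843) and array weights turned Atf3 to -0.0828 (adjusted p = 0.748). Leaving out single arrays, the same contrast ran from -0.0703 to 0.176 for Fosl2, from -0.0653 to 0.195 for Atf3, from -0.094 to 0.0485 for Jun, from -0.106 to 0.0303 for Egr1 and from -0.066 to 0.245 for Fos. For embryonic fibroblasts against cardiomyocytes it ran from -0.0412 to 0.0113 for Junb. The cause was not tested. With array weights Junb was called in both comparisons with adult fibroblasts. Over all genes, array weights called 3103 higher and 3362 lower in embryonic fibroblasts than in cardiomyocytes, against 2054 and 2212, and 2519 against 1662 lower in embryonic than adult fibroblasts; without embryonic fibroblast replicate 2 the lower genes in the first of these were 1452. Each member had a single probe, so averaging probes left its values as they were. Other alternatives could not change a member's difference either, only its adjusted p. These were leaving out dim genes, fitting only the groups compared, the replicate block and limma-trend. Leaving out an array of the group not compared was another. The count of differences that kept their direction is therefore partly fixed in advance.

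Replicate numbers are shared by the groups, but same-numbered arrays did not deviate together: correlations of their deviations over genes ran from -0.20 to 0.20 in 9 pairs, against -0.22 to 0.19 in 18 others. With the replicate block 2 genes were higher and 4 lower in embryonic fibroblasts than in cardiomyocytes, 3 higher and 4 lower in adult fibroblasts, and 0 higher and 3 lower in embryonic than adult fibroblasts, as without it. Counts of the pathway lists without adult fibroblast replicate 3 were added after seeing the data.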
